A study of Drosophila melanogaster with 12 samples.

Results

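The regions described here are the centromere-proximal ends of chromosome arms 2L and 3L in Drosophila melanogaster S2 cells, an established cell line of embryonic origin. They were defined by position alone, as every called peak with a midpoint at or above 19 Mb of 2L or 3L (dm3, Release 5). This gave 1811 of the 19365 peaks in the 8 immunoprecipitation lists, 472 on 2L and 1339 on 3L. In these lists 2L ran to 22.98 Mb and 3L to 24.51 Mb, the highest peak ends, so that the ends spanned 3.98 and 5.51 Mb and 39 windows of 250 kb, the last of each arm shorter. The study measured the linker histones H1 and dBigH1 by ChIP-seq with polyclonal antibodies. Wild-type S2 cells (control) and cells labelled as 1 mM induced for wild-type BigH1 (induced) gave 2 libraries each per antibody, beside 4 inputs that were not analysed here. The growth protocol names lines carrying FLAG-tagged dBigH1, kept under hygromycin B between experiments, and the treatment protocol gives 1 mM copper sulphate for 24 h in the same words for both conditions. Whether control cells received copper, and how many clones a line represents, is not given in the sources used here. The labels also do not say that replicates came from separate cultures, so the spread between them may be technical.

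Linker histones bind the nucleosome where DNA enters and leaves it and help chromatin to compact. H1 is the somatic linker histone of the fly, whereas dBigH1 belongs to germ cells and to the embryo before its own genome becomes active, after which H1 takes its place. Toward the centromere the arms pass from gene-rich euchromatin into pericentric heterochromatin, which is rich in repeats, in methylation of histone H3 at lysine 9 and in the protein HP1. Repeats limit where short reads can be placed, and how reads with several placements were handled is not given in the sources used here. No gene position or sequence of dm3 was used, so regions are given by coordinate without a gene name.

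Each list held between 196 and 5182 peaks. The score of a peak is the authors' value from the peak caller MACS, which started at 50 in these files, and scores were read within a list. The lists give no read counts, so the depth behind a peak is unknown. The ends took a similar share of most lists. Control H1 lists had 10.0% and 8.91% of their peaks there, and induced H1 lists 9.62% and 9.46%. Control dBigH1 lists had 9.02% and 6.54%, and induced dBigH1 lists 10.7% and 10.1%. Where 2 libraries were set against 2, an exact two-sided permutation test over libraries was used. Its 6 arrangements allow no p under 0.333, so no comparison between conditions could pass 0.05.

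The distribution of H1 differed between the arms. On 2L, H1 peaks vanished from a long stretch and then became dense toward the centromere, and on 3L they were present along the whole end. The 4 H1 lists held 86 and 99 (control) and 94 and 109 (induced) peaks on the 2L end, and 296, 353, 247 and 381 on the 3L end. Per Mb this was 21.6, 24.9, 23.6 and 27.4 peaks on the 2L end, below the 40.8, 47.6, 38.7 and 44.3 per Mb on the rest of 2L. The 3L end had 53.7, 64.1, 44.8 and 69.1 peaks per Mb, above the 30.2, 33.5, 25.6 and 33.7 on the rest of 3L. Each arm thus departed from its own remainder in the same direction in the 4 H1 libraries, downward on 2L and upward on 3L. Pooled over both arms, the density of the ends was 1.13, 1.17, 1.12 and 1.32 times that of the remainder.

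**Figure D1:**
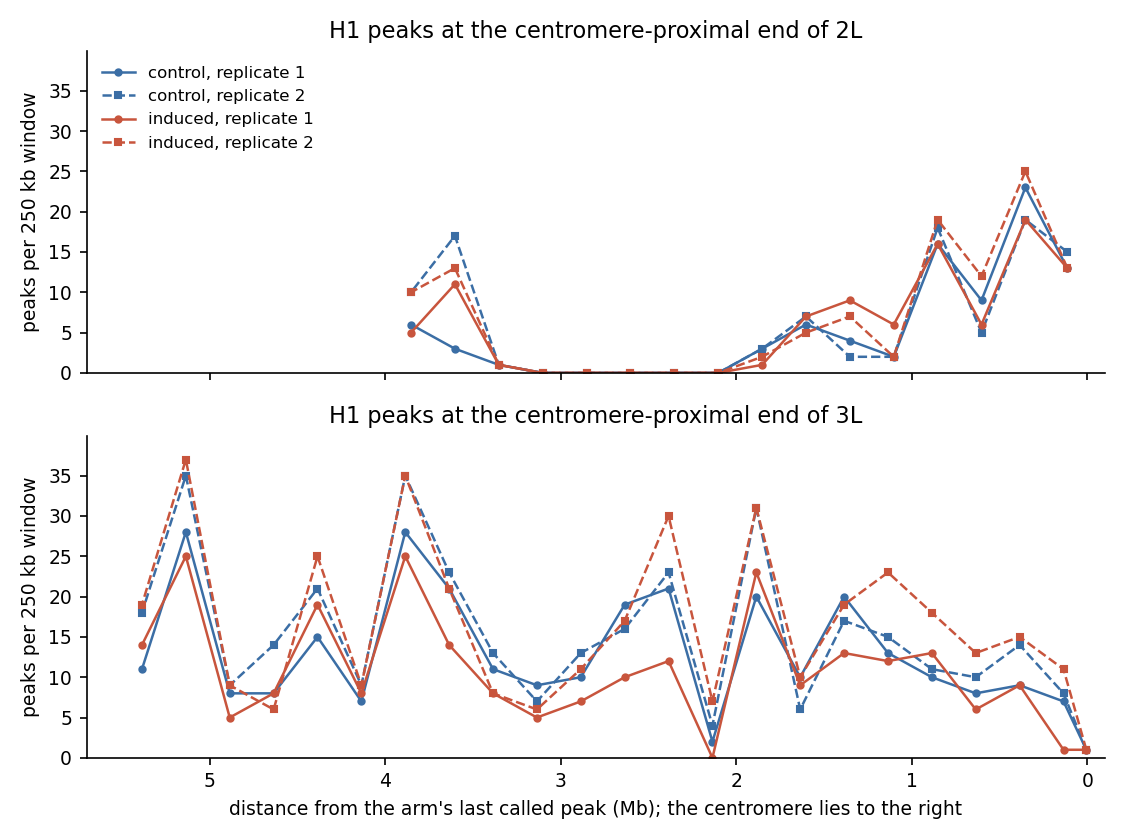
H1 peaks per 250 kb window (vertical axis) against the distance of the window's centre from the last called peak of the arm in Mb (horizontal axis) for 2L (top) and 3L (bottom), 1 line per library. The 4 lines are at 0 in 5 neighbouring windows of 2L and rise to between 19 and 25 peaks near its end, while 3L alternates between dense and sparse windows.

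On the 2L end, the 5 windows from 19.75 to 21 Mb held no H1 peak in any of the 4 lists. The empty stretch reached from 19600761 to 21060255, a length of 1459 kb. It ranked 9 by length among 6058 gaps between H1 regions on the named chromosomes, and 5 on the large autosome arms. Before it, the window at 19.25 Mb held 3 and 17 control and 11 and 13 induced H1 peaks. After it, the 1 Mb zone that begins 2 Mb before the arm's last peak held 15, 14, 23 and 16, and the last 1 Mb held 61, 57, 54 and 69. The fullest window, from 22.5 to 22.75 Mb, held 23 and 19 control and 19 and 25 induced peaks. Other stretches without H1 on this end ran from 19338818 to 19599148 (260 kb), from 21128450 to 21290420 (162 kb) and from 21389224 to 21544626 (155 kb). The first of these held 2 and 3 control dBigH1 peaks, the second 1 and 2 and the third none. None of the 3 held a peak of the induced dBigH1 lists, which were shorter.

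On the 3L end, 22 of 23 windows held an H1 peak in each of the 4 lists. The exception, from 22.25 to 22.5 Mb, held 2 and 4 control and 0 and 7 induced peaks, and a gap of 192 kb without H1 lay there. The fullest window was distal, from 19.25 to 19.5 Mb, with 28 and 35 control and 25 and 37 induced peaks. Density was lowest in the last 1 Mb of the end, where control lists held 35 and 44 peaks and induced lists 29 and 57. The zone before it held 61 and 67 control and 57 and 82 induced peaks. H1 peaks therefore thinned over the last 1 Mb of 3L and reached their highest density over the last 1 Mb of 2L.

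Between conditions, the mean H1 peak number in the ends differed by less than the spread between replicates. Control lists held 417 ± 49.5 peaks and induced lists 416 ± 105 (SD, n = 2), a log2 ratio of -0.02 (exact permutation p = 1). The first induced library was the lowest of the 4 and the second the highest. The share of the list lying in the ends was 9.46% ± 0.781 for control and 9.54% ± 0.116 for induced libraries (exact permutation p = 1). Relative to the rest of 2L and 3L the log2 ratio of the ends was 0.07 higher in induced cells (exact permutation p = 1), a difference below the SD of 0.17 between the induced libraries. Of the 34 windows in the ends with an H1 peak, 2 had more peaks in both induced than in both control libraries and 3 had fewer. Over the named chromosomes the same calls took 4.34% and 11.6% of 346 windows. The higher windows were 2L 21.5 to 21.75 Mb, with 4 and 2 control against 9 and 7 induced peaks, and 3L 23.5 to 23.75 Mb, with 10 and 11 against 13 and 18. The lower ones lay at 21 to 21.25 Mb of 2L and at 21 to 21.5 Mb of 3L. The last 2 Mb of the arms held 45.0% and 40.3% of the control H1 peaks in the ends and 47.8% and 45.7% of the induced ones (difference 4.11 points, exact permutation p = 0.333). It was 6.49 points without the first control library, 1.73 without the second and 1.87 with peaks closer than 1000 bp joined.

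H1 peaks of the 3L end were narrower than those on the rest of 3L in the 4 lists, with means of 2454, 2692, 2753 and 2819 bp against 3262, 3224, 3168 and 3225 bp. On 2L the lists were divided, with 3263, 2919, 3468 and 3108 bp at the end against 3164, 3110, 3073 and 3333 bp on the rest, wider in the first library of each condition and narrower in the second. Over both ends the mean width was 2637 and 2742 bp in the control lists and 2950 and 2883 bp in the induced lists, which is 0.822, 0.869, 0.948 and 0.877 times the width on the rest of 2L and 3L. Over all other peaks of the lists, which include that remainder, it was 2693 and 2782 bp (control) and 2803 and 2870 bp (induced). Against these, the ends were narrower in the control lists and wider in the induced ones. Both induced libraries had wider peaks in the ends than both control libraries, at 2917 ± 47.0 bp against 2689 ± 74.5 bp (SD, n = 2, log2 ratio 0.12, exact permutation p = 0.333, the smallest possible). The separation was lost with lists of equal length, at 2751 and 3162 bp for control and 2950 and 3322 bp for induced libraries. It was also lost with scores of 100 or more and with peaks closer than 1000 bp joined. The log2 ratios in these settings were 0.086, 0.063 and 0.088. On the rest of these arms the widths of the conditions overlapped, at 3181 ± 34.7 and 3199 ± 124 bp. The ratio of end to remainder was 0.845 ± 0.0327 for control and 0.913 ± 0.0501 for induced libraries (n = 2), separate but again at an exact permutation p of 0.333. On the 2L end H1 peaks covered 285 ± 5.92 kb in control and 332 ± 9.02 kb in induced libraries (SD, n = 2, log2 ratio 0.22, exact permutation p = 0.333), and on the 3L end the conditions overlapped. The end of 2L had broader peaks than that of 3L in each list. In the zone of 2L from 2 to 1 Mb before the last peak the means were 5088, 3193, 4403 and 4489 bp, the broadest zone of the ends in 3 of the 4 lists. In the last 1 Mb of 3L they were 1866, 2089, 2203 and 2296 bp.

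The score of H1 peaks in the ends sat near the middle of each list. Median scores were 93.8 and 96.9 in the control lists and 93.9 and 110.2 in the induced ones, against 94.4, 101.5, 92.1 and 109.4 for the other peaks of the same lists. Against the rest of 2L and 3L alone, with medians of 106.6, 109.9, 95.8 and 120.5, the ends were lower in each list. Peaks on the 2L end scored higher than those on the 3L end within each list, with medians of 119, 97.9, 100.7 and 125 against 90.0, 96.4, 89.7 and 107. The highest H1 score in the ends, 992, belonged to 2L 21698225 to 21706714. Other H1 peaks there scored 578 in the first control and 709 in the first induced library, and the second control list had no H1 peak there. A second strong position, 2L 21852809 to 21860327, scored 873 in the first control library, rank 2 of its list, and was absent from the other 3 H1 lists.

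Replicates shared most H1 peaks of the ends. In control cells 268 of 382 peaks of the first library overlapped one of the second (70.2%, exact 95% interval 65.3 to 74.7), and 72.9% did on the rest of 2L and 3L. In induced cells it was 257 of 341 (75.4%, 70.4 to 79.8) against 75.4%. From the longer second libraries 60.4% and 51.4% recurred in the ends, against 63.5% and 58.5% on the rest. The exact intervals of the second induced library, 46.9 to 55.9 and 56.0 to 61.1, did not meet. These intervals cover counting error alone and treat neighbouring peaks as independent. In that library 63.3% recurred on the 2L end and 48.0% on the 3L end, so the lower share lay on 3L. On the proximal side of the empty stretch of 2L, in the zone from 2 to 1 Mb before the last peak, the recurring share was 26.7%, 35.7%, 43.5% and 56.2% in the 4 lists, against 73.8%, 82.5%, 74.1% and 63.8% in the last 1 Mb. On its distal side, below 19.98 Mb, it was 70.0%, 25.0%, 88.2% and 66.7%.

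After peaks of the 4 H1 lists were merged where they shared 1 bp, the ends held 638 H1 regions. All 4 libraries held 143 of them (22.4%), against 21.7% of the 6653 regions of the genome. Both control and no induced library held 20 (3.13%, against 3.44% genome-wide), and both induced and no control library held 21 (3.29%, against 3.07%). These shares were near the background. On 2L the counts were 4 control and 12 induced regions among 154 (2.60% and 7.79%), and on 3L 16 and 9 among 484 (3.31% and 1.86%).

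The H1 regions with the best mean rank in the 4 lists began with 2L 22098167 to 22102790, which scored 662, 504, 394 and 606. Next came 2L 22904405 to 22910536, 0.070 Mb from the last peak of the arm, with 394, 396, 214 and 501. On 3L they were 20864478 to 20882801, 18.3 kb wide, then 23010817 to 23014896 and 20036541 to 20044884. The best ranked of the 20 control regions were 3L 21692622 to 21698099 (scores 219.9 and 521) and 3L 20558483 to 20561759 (230 and 271). Behind them stood a pair of neighbours on 2L, 22010874 to 22017689 and 22004412 to 22010841, and the 3L region from 21129743 to 21136705. The best ranked of the 21 induced regions were 2L 22567270 to 22569858 (208 and 185) and 2L 21788648 to 21793594 (271 and 141). Behind them stood 3L 22602698 to 22607840, then 2L 21664868 to 21671855, then 3L 19336792 to 19341876. Mean ranks of the 5 named regions ran from 269.5 to 1275 for control and from 888.5 to 1419.5 for induced. The regions were picked by this rank in lists of different length, so these values do not compare the classes.

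In the deposited lists dBigH1 peaks were fewer in induced than in control cells at the 2L end, and the conditions overlapped at the 3L end. Control lists held 39 and 29 dBigH1 peaks on the 2L end and induced lists 8 and 8, so the groups did not overlap. This was 34 ± 7.07 against 8 ± 0 (SD, n = 2), 4.20-fold lower in induced cells (log2 ratio -2.07, exact permutation p = 0.333, the smallest possible). With the 4 lists cut to equal length the order reversed, to 2 and 5 control against 8 and 6 induced peaks. On the 3L end control lists held 15 and 18 and induced lists 13 and 16, which overlapped (16.5 ± 2.12 against 14.5 ± 2.12, log2 ratio -0.19, exact permutation p = 0.667), and at equal length 3 and 5 against 13 and 13. Each induced list is shorter than either control list. As a share of its list, the 3L end took 2.50% of both control lists and 6.63% and 6.72% of the induced ones (exact permutation p = 0.333). The rest of 3L rose as well, from 13.9% and 15.2% to 33.2% and 29.4%, so the rise was not particular to the end. The 2L end, at 6.51% and 4.03% against 4.08% and 3.36%, overlapped between conditions. The rest of 2L went from 18.4% and 23.4% of the control lists to 29.6% and 34.9% of the induced ones.

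**Figure D2:**
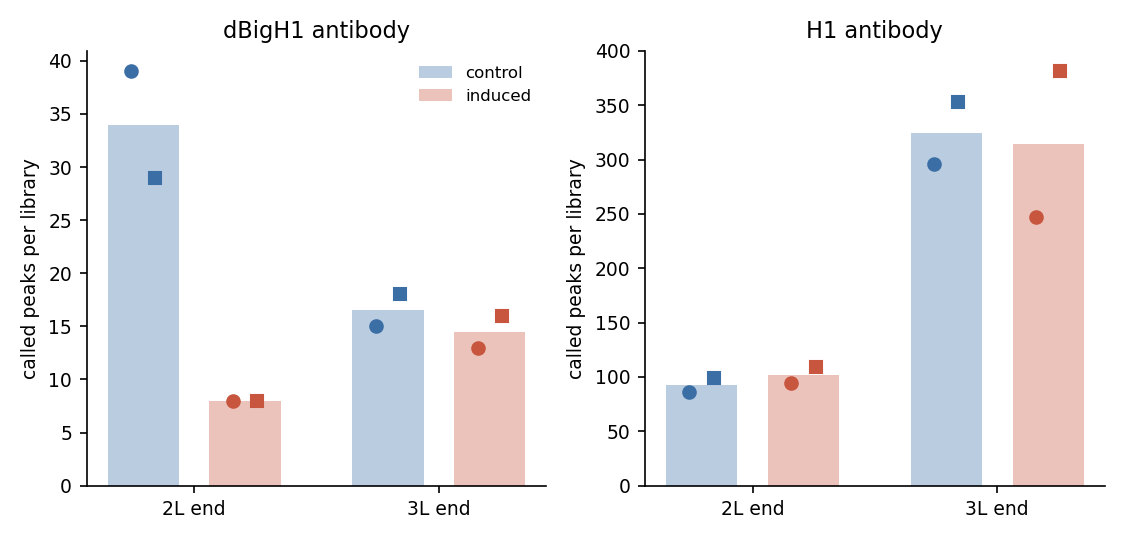
Called peaks per library (vertical axis) at the 2L and 3L ends for the dBigH1 (left) and H1 (right) antibodies. Bars are means of 2 libraries starting at 0, circles replicate 1 and squares replicate 2. The dBigH1 libraries separate by condition on 2L (39 and 29 against 8 and 8) and overlap on 3L.

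The split between the arms was compared directly, a comparison chosen after seeing the data. Of the dBigH1 peaks in the ends, 72.2% and 61.7% lay on 2L in the control lists, against 38.1% and 33.3% in the induced lists. The difference of -31.2 percentage points exceeded the SDs of 7.44 and 3.37 (exact permutation p = 0.333). It rests on weak peaks. Among peaks with a score of 100 or more, 5 of 10 lay on 2L in each control list, against 2 of 2 and 3 of 4 in the induced lists, which turns the difference to 37.5 points. With lists of equal length it was -10.2 points.

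Over both ends together control dBigH1 lists held 54 and 47 peaks and induced lists 21 and 24. That is 50.5 ± 4.95 against 22.5 ± 2.12 (SD, n = 2), a log2 ratio of -1.17 (exact permutation p = 0.333). The corresponding log2 ratio on the rest of 2L and 3L was -0.75. The whole lists fell as well, from 599 and 719 control to 196 and 238 induced peaks. As a share of the list, the ends rose from 7.78% ± 1.75 to 10.4% ± 0.446 (SD, n = 2, exact permutation p = 0.333). The difference of 2.62 points ranged from 1.38 to 6.49 points in the alternatives tried. The rest of 2L and 3L rose more, from a mean of 35.4% to 63.5%, so the rise was not particular to the ends. The ratio of ends to remainder was 0.41 lower in induced cells on the log2 scale, below the SD of 0.51 between control libraries (exact permutation p = 0.667). Without the first control library this value was -0.05, and without the second -0.77. By arm, the 2L end held 39 and 29 control peaks beside 110 and 168 on the rest of 2L, and 8 and 8 induced peaks beside 58 and 83. The 3L end held 15 and 18 beside 83 and 109, and 13 and 16 beside 65 and 70. Control end peaks stood low in their lists. When the 4 dBigH1 lists were each kept to their 196 highest scores, control lists retained 5 and 10 end peaks and induced lists 21 and 19, and the log2 ratio became 1.50 in the opposite direction. The lower number in induced cells therefore holds for the deposited lists and not for lists of equal length. The log2 ratio of dBigH1 minus that of H1 was -1.14 over both ends, -2.21 on 2L and -0.11 on 3L, with exact permutation p of 0.222, 0.111 and 0.778 over 36 arrangements (smallest possible 0.0556).

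**Figure D3:**
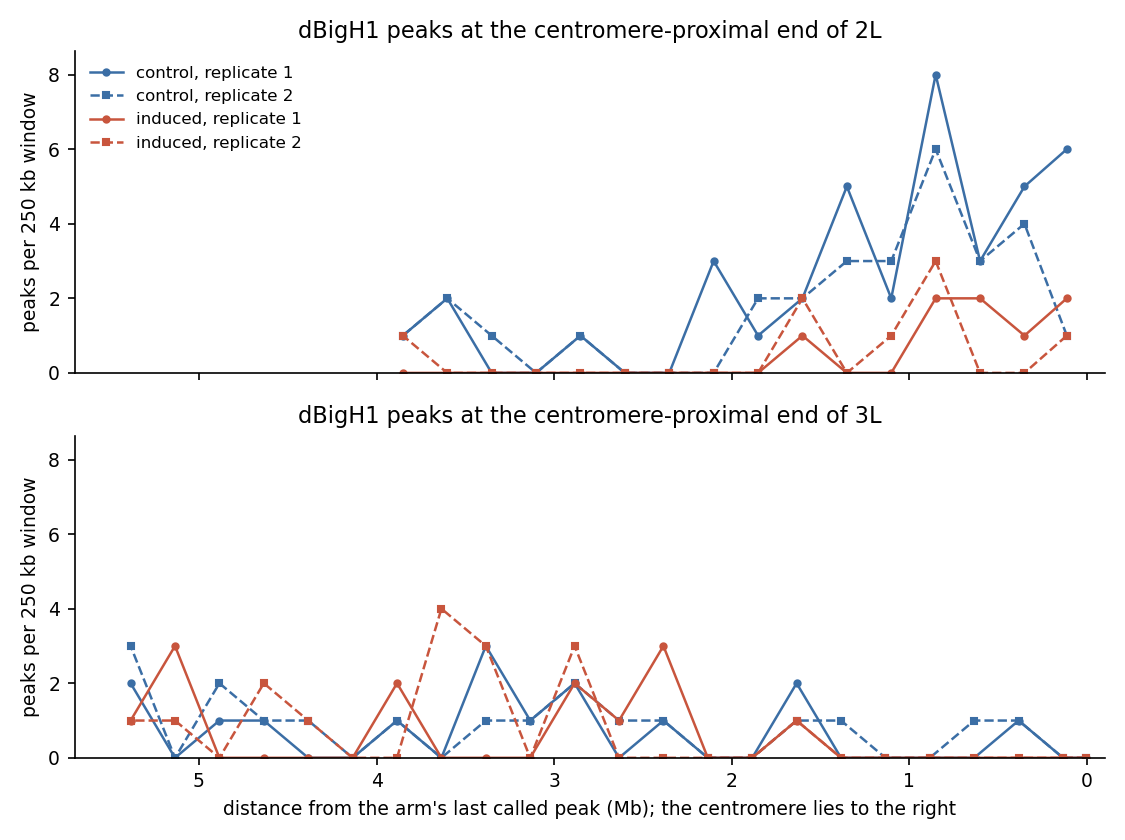
dBigH1 peaks per 250 kb window (vertical axis) against the distance of the window's centre from the last called peak of the arm in Mb (horizontal axis) for 2L (top) and 3L (bottom), 1 line per library. Control lines climb over the last 2 Mb of 2L to 8 and 6 peaks in the fullest window, where induced lines reach 2 and 3, and neither condition exceeds 4 peaks in a window of 3L.

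Toward the centromere of 2L the control dBigH1 peaks became denser, as the H1 peaks did. Control lists held 3 and 4 peaks in the most distal zone, 3 and 1 in the next 1 Mb, 10 and 10 in the zone after it and 23 and 14 in the last 1 Mb. Induced lists held 0 and 1, then 0 and 0, then 1 and 3, and 7 and 4 in the last 1 Mb. Both conditions were thus fullest over the last 1 Mb of 2L, and control counts in the deposited lists were the higher there. These control peaks were weak, with median scores of 66.3 and 61.8, against 64.5 and 86.8 for the induced ones. In the windows from 22 Mb on, the highest control scores were 95.5 and 98.2 and the highest induced ones 119.9 and 132.5. The higher control counts therefore did not extend to the strongest peaks. In the last 1 Mb 6 of 23 and 6 of 14 control peaks overlapped one of the other replicate, and 1 of 7 and 1 of 4 induced peaks. The fullest window was 22 to 22.25 Mb, with 8 and 6 control and 2 and 3 induced peaks. The window from 21.5 to 21.75 Mb held 5 and 3 control peaks and no induced peak.

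On 3L the order was different, since dBigH1 thinned out toward the centromere. The last 1 Mb of 3L held 1 and 2 control peaks and no induced peak, although the H1 lists held 29 to 57 peaks there. The zone before it held 2 and 2 control and 1 and 1 induced peaks. The most proximal induced peaks lay 1556 and 1532 kb before the last peak of the arm, and the most proximal control peaks 488 kb before it at 24.02 Mb in both libraries. The fullest 3L window, from 21.5 to 21.75 Mb, held 2 and 2 control and 2 and 3 induced peaks. Taking both arms, 66.7% and 59.6% of control end peaks and 42.9% and 33.3% of induced ones lay in the last 2 Mb of an arm (63.1% ± 5.01 against 38.1% ± 6.73, exact permutation p = 0.333). With scores of 100 or more this difference turned to 47.5 points in the other direction, on 10, 10, 2 and 4 peaks. With lists of equal length it was 4.85 points.

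Of the 29 end windows with a dBigH1 peak, both induced libraries had fewer peaks than both control libraries in 12, and more in 1. Over the named chromosomes 53.4% of 373 windows were lower and 3.75% higher by the same rule, so the share in the ends, 41.4% lower, was not above the background. Of the 12 lower windows, 8 lay on 2L and 4 on 3L. The higher one, 3L 19.25 to 19.5 Mb, held 0 and 0 control and 3 and 1 induced peaks, and it was also the fullest H1 window of that end. Windows without any dBigH1 peak numbered 3 on 2L and 7 on 3L.

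The long stretch of 2L without H1 held dBigH1 peaks in the control lists alone, 4 in the first library and 1 in the second. The peak common to both, 2L 20120486 to 20121606, scored 206.5 and 249.6 and was 1.12 kb wide. The other 3 scored 52.1, 91.2 and 101.4. The control dBigH1 lists held 599 and 719 peaks in all, against 196 and 238 in the induced lists. Genome-wide, both control and no induced library held 27.2% of 1263 dBigH1 regions, and both induced and no control library held 2.45%.

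dBigH1 peaks in the ends were weaker than elsewhere in the control lists. Their median scores were 71.6 and 66.3, against 94.1 and 83.4 for the other peaks of those lists, and 18.5% and 21.3% scored 100 or more, against 46.6% and 38.1%. Medians in induced lists were 56.5 and 66.1, against 64.8 and 68.8. The highest control scores in the ends were 448 and 349, at 3L 22871476 to 22872648, and the highest induced ones 140 (2L 21338525 to 21340648) and 146 (3L 21657766 to 21662662).

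In induced cells, width separated the ends from the rest of 2L and 3L. Induced dBigH1 peaks averaged 2280 and 3013 bp in the ends and 3575 and 3797 bp on the rest of 2L and 3L. Control peaks averaged 2428 and 2251 bp in the ends and 2321 and 2188 bp on the rest. Over all other peaks of the lists, which include that remainder, means were 3218 and 3501 bp (induced) and 2110 and 1932 bp (control). Induced peaks outside 2L and 3L were thus narrower on average than those on the rest of these arms. A narrower width is therefore not shown to be particular to the ends. The ratio of end to remainder was 0.716 ± 0.110 in induced and 1.04 ± 0.0124 in control cells (SD, n = 2, exact permutation p = 0.333, the smallest possible). Within the ends themselves the widths of the conditions overlapped, at 2339 ± 125 bp for control and 2646 ± 518 bp for induced libraries (n = 2, log2 ratio 0.16, exact permutation p = 0.667). Without the second induced library the log2 ratio was -0.04.

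**Figure D4:**
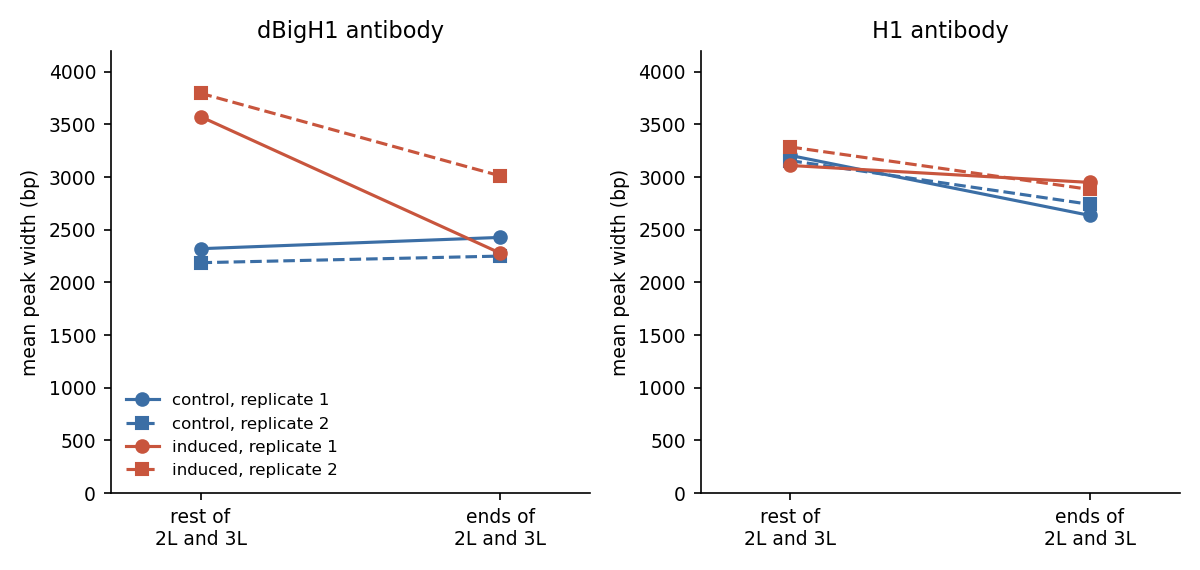
Mean peak width in bp (vertical axis) on the rest of 2L and 3L and in their centromere-proximal ends, 1 line per library, for dBigH1 (left) and H1 (right). Induced dBigH1 peaks fall from 3575 and 3797 bp to 2280 and 3013 bp, while control dBigH1 peaks stay between 2188 and 2428 bp.

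Few dBigH1 peaks of the induced ends were found again. In all, 3 of 21 peaks of the first induced library overlapped a peak of the second (14.3%, exact 95% interval 3.05 to 36.3), against 26.8% (19.2 to 35.6) on the rest of 2L and 3L. For control cells it was 22 of 54 (40.7%, 27.6 to 55.0) from the first library and 22 of 47 (46.8%, 32.1 to 61.9) from the second, against 58.5% and 40.8% on the rest. The intervals of end and remainder overlapped in each of these cases. Among control peaks that scored 100 or more, 6 of 10 in the first library and 10 of 10 in the second were found again, against 16 of 44 and 12 of 37 weaker ones. Among induced peaks it was 1 of 2 and 0 of 4 strong ones, against 2 of 19 and 3 of 20 weaker ones. On the 3L end, none of the 13 peaks of the first induced library and 2 of the 16 of the second overlapped a control peak, whereas on the 2L end 6 of 8 and 3 of 8 did. On the rest of 2L and 3L, 27 of 123 (22.0%) and 36 of 153 (23.5%) did. The exact 95% intervals of the 3L end, 0 to 24.7 and 1.55 to 38.3, included these shares. Those of the 2L end were 34.9 to 96.8, which lay above them, and 8.52 to 75.5, which included them.

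**Figure D5:**
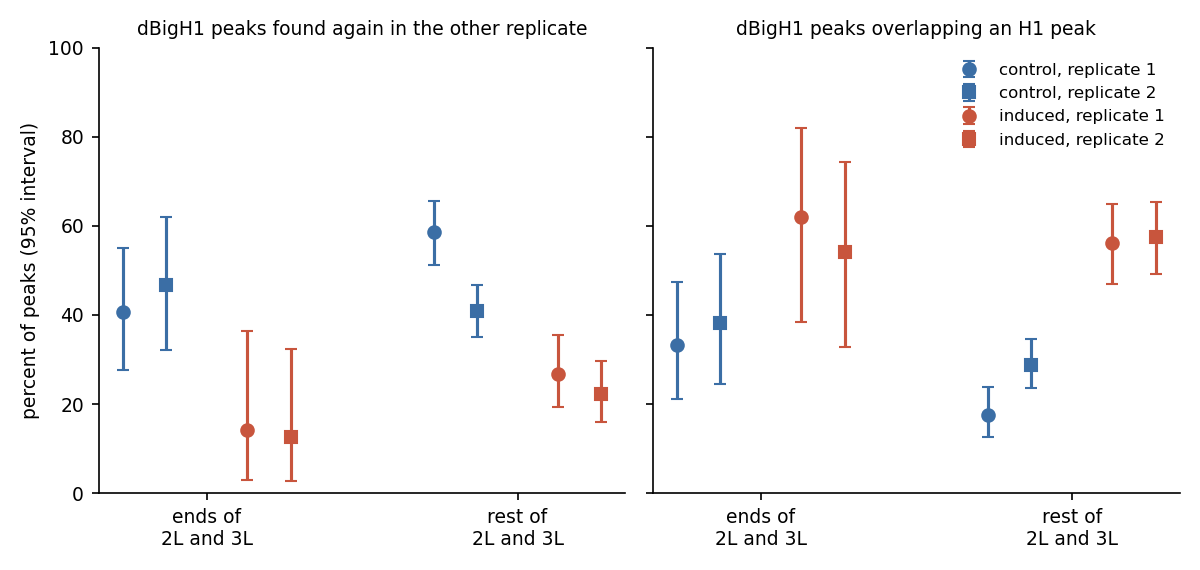
Percent of dBigH1 peaks (vertical axis, with exact 95% intervals for counting error) that overlapped a peak of the other replicate (left) or an H1 peak of the matching library (right, same condition and number), in the ends and on the rest of 2L and 3L. In the ends 14.3% and 12.5% of induced and 40.7% and 46.8% of control peaks were found again, while 61.9% and 54.2% of induced and 33.3% and 38.3% of control peaks overlapped H1.

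A larger share of dBigH1 peaks in the ends lay on H1 peaks in the induced lists. The overlap was 18 of 54 (33.3%, 21.1 to 47.5) and 18 of 47 (38.3%, 24.5 to 53.6) in control libraries, and 13 of 21 (61.9%, 38.4 to 81.9) and 13 of 24 (54.2%, 32.8 to 74.4) in induced ones. Group means were 35.8% ± 3.51 and 58.0% ± 5.47 (SD, n = 2), a difference of 22.2 points (exact permutation p = 0.333). With lists of equal length it was 44.6 points. With scores of 100 or more for both antibodies it was 15 points, on 10, 10, 2 and 4 dBigH1 peaks. On the rest of 2L and 3L the difference was 33.6 points, between 23.2% ± 7.97 and 56.8% ± 1.00. Control peaks overlapped H1 12.6 ± 4.45 points more often in the ends than on the remainder, and induced peaks 1.23 ± 6.47 points, a contrast of -11.3 points (exact permutation p = 0.333). Weak peaks carried the control overlap: 36.4% and 45.9% of end peaks with a score under 100 overlapped H1, against 2 of 10 and 1 of 10 stronger ones. The pattern was not particular to the ends. On the rest of 2L and 3L, 25.0% and 38.5% of the weaker control peaks overlapped H1, against 7.41% and 7.06% of the stronger ones. In the induced libraries 57.9% and 65.0% of the weaker end peaks overlapped H1, against 2 of 2 and 0 of 4 stronger ones. H1 peaks covered 10.6% and 13.1% of the ends in control and 10.6% and 14.9% in induced libraries, close to the 11.4%, 12.8%, 10.0% and 12.8% of the remainder.

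Merging the 4 dBigH1 lists gave 111 regions in the ends. Both control and no induced library held 20 of them (18.0%, against 27.2% of 1263 regions genome-wide), 13 on 2L and 7 on 3L. Both induced and no control library held 2 (1.80%, against 2.45%), and no region of the ends was held by all 4 libraries, a class with 4 regions (0.317%) in the genome. Regions in a single library made up 71.2% of the ends and 64.2% of the genome. On 3L they made up 80.4% and on 2L 63.3%.

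The control regions were led by 3L 22871476 to 22872648, 1.17 kb wide and 1.64 Mb from the last peak of the arm, which scored 448 and 349. Next were 3L 19583146 to 19584271 (257 and 278) and 2L 20120486 to 20121606, then 3L 19131394 to 19134234 (152 and 289) and 3L 20498947 to 20504257 (122 and 194). Of these 5 regions, 4 overlapped no H1 peak in any H1 list, and 3L 19131394 overlapped one in 1 control and 1 induced list. The 2 induced regions were 3L 19450518 to 19453622 (74.0 and 65.1), which overlapped H1 in each of the 4 H1 lists, and 2L 21338489 to 21340704 (140 and 52.9), which overlapped H1 in 1 control and 1 induced list.

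The boundary at 19 Mb lay in a stretch without H1 on both arms, of 157 kb on 2L and 111 kb on 3L. The nearest H1 peaks inside it lay 83.9 to 102 kb away and the nearest outside 18.9 to 93.3 kb away. Their scores were 50.9 to 453 inside and 58.7 to 118 outside. The first 250 kb inside held 5 to 19 H1 peaks per list and arm, and the last 250 kb outside 3 to 21. For dBigH1 the first 250 kb inside held 0 to 3 peaks and the last 250 kb outside 0 to 3, and the first peak inside on 2L lay 165 kb away in both control lists, 2340 kb in the first induced list and 106 kb in the second.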

How the data were processed

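Peak lists of the 8 immunoprecipitated libraries were analysed, 1 list per library as deposited. Per the submitters' processing notes the tools were Bowtie 0.12.5, FastQC and MACS 1.4.2 and the build was dm3; settings and the use of the inputs are not given in the sources used here. The score of each peak is the authors' value as deposited, and the lowest was 50. Read counts were not used, so depth and its precision are unknown. Peaks were placed by midpoint from 19 Mb of 2L and 3L, counted in 250 kb windows and merged into regions where they shared 1 bp, in Python 3.11.15 using SciPy 1.17.1 and NumPy 2.4.6. Densities use the length up to the highest peak end. Conditions were compared over libraries with exact two-sided permutation tests, and shares have exact (Clopper-Pearson) 95% intervals. Counting, merging and overlaps were checked on simulated peaks. For each antibody and class, the 5 regions with the lowest mean within-list rank were named, and windows by fullest, empty and most proximal. Positions singled out for the highest score in a list or for lacking H1 were chosen after their values were seen. Members, windows and alternatives were chosen with earlier results of these data known. Alternatives tried were scores from 100 upward, ends from 20 Mb, joining peaks closer than 1000 bp, equal list length, 50% cover, each library left out and a replicate block.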

Additional observations from a re-analysis of the deposited data

Results flagged for a closer look

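The share of dBigH1 peaks with a score of 100 or more moved in opposite directions at the ends of the 2 arms. On 2L it was 16.2 percentage points higher in induced than in control cells, from 5 of 39 and 5 of 29 peaks to 2 of 8 and 3 of 8. On 3L it was lower, by -27.4 points, from 5 of 15 and 5 of 18 to 0 of 13 and 1 of 16. The difference of 43.6 points between the arms had p = 0.333 by an exact permutation test, which is the lowest value this number of libraries can reach. It rests on at most 5 such peaks per list and arm. On the rest of 2L and 3L the share also fell in induced cells, by -20.9 points, from a mean of 36.3% to 15.4%. The fall was thus not particular to the 3L end, and the cut at 100 was the same in lists of unknown depth.

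On the scaffold 3LHet, which holds pericentric sequence of the same arm and lies outside the comparisons above, H1 peaks made up 2.85% and 2.61% of the induced lists, above the 2.39% and 2.07% of the control lists. Peak numbers there were 101 and 135 against 91 and 105.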

How the results depend on the processing

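Of 185 alternative values for 24 results, 141 kept their direction or size, 28 moved and 16 changed direction. For differences between conditions the sign alone was compared, so a setting in which the libraries stopped separating could count as kept. The 141 also include the replicate block, which cannot change a value. No test of 2 libraries against 2 could pass 0.05, so the alternatives bear on direction and size alone. With lists of equal length the dBigH1 log2 ratio of peak number became 1.50, that of mean width -0.0518, the ratio of ends to remainder 0.40, the share in the last 2 Mb 4.85 points, the difference between antibodies 1.47 and the H1 log2 ratio of peak number 0.0245. A score of 100 or more gave 0.16 for the dBigH1 ratio of ends to remainder, 47.5 points for its share in the last 2 Mb, 37.5 points for its share on 2L and 0.0593 for H1 peak number. That setting left 6 control and 0 induced dBigH1 regions, 13 control H1 regions and 46 H1 regions in all 4 libraries. It gave replicate recurrence of 60% (control dBigH1), 0% (induced dBigH1), 56.6% (control H1) and 69.1% (induced H1). Equal length gave 4 control dBigH1 regions and recurrence of 80% (control dBigH1), 55.9% (control H1) and 61.3% (induced H1), and 50% cover gave 92 H1 regions in all 4 libraries. With each library left out, the log2 ratio of H1 peak number ranged from -0.29 to 0.24, the H1 share of the list from -0.48 to 0.63 points, H1 ends to remainder from -0.0477 to 0.20 and dBigH1 width from -0.0363 to 0.37. Region counts then need 1 library of that group and rose by construction, to 21 to 48 control, 2 to 19 induced and 0 to 1 common dBigH1 regions, and 41 to 82 control, 49 to 104 induced and 163 to 202 common H1 regions. Leaving out a library kept the dBigH1 log2 ratio of peak number between -1.27 and -1.07. For other changes the cause was not tested. Libraries share replicate numbers, but no label says that a number marks a common culture or day. Over 250 kb windows, replicate deviations of the 2 conditions correlated at 0.088 (dBigH1) and 0.33 (H1). The replicate block left values unchanged by construction, at -1.17 (dBigH1, exact sign-flip p = 0.5) and -0.02 (H1, p = 1) for peak number. Depth is unknown, so a missing peak does not show that the protein was absent.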

Other observations

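Peaks of the ends differed in how closely they followed each other. Neighbouring H1 peaks on the 3L end were a median of 4.16 and 2.58 kb apart in control and 5.29 and 2.41 kb apart in induced cells, and on the 2L end 6.24, 3.51, 6.34 and 4.02 kb. Neighbouring dBigH1 peaks on the 2L end were 25.9 and 64.8 kb apart in control and 141 and 254 kb in induced cells. On the 3L end they were 272 and 219 kb apart in control and 122 and 89.0 kb in induced cells, so the order of the conditions differed between the arms, which was not tested.

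Beyond the arm sequence, the control dBigH1 lists held 12 and 10 peaks on 3LHet and 2 and 1 on 2LHet. The induced dBigH1 lists, which were shorter, held 0 and 2 on 3LHet and 0 and 0 on 2LHet. As a share of the list, 3LHet took 2.00% and 1.39% in control and 0% and 0.840% in induced libraries. On 2LHet the shares were 0.334% and 0.139% in control and 0% in both induced libraries.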
